A study of Mus musculus and Macaca nemestrina with 20 samples.

Results

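Cholesterol and fatty acid synthesis genes were followed in dorsal root ganglia as a set of 34 mouse genes, found by symbol among 29766 genes, and 33 monkey counterparts, found among 35194 genes. The set was listed by pathway, with earlier results of these data known, and members were then found by symbol alone. In monkeys Cyp51 was read as CYP51A1 and Scd1 as SCD, and Scd2 was without a counterpart. It holds 7 genes of the mevalonate route up to farnesyl pyrophosphate, 11 of the route from squalene to cholesterol, 5 regulators or sterol carriers, 5 genes of fatty acid synthesis and 6 of fatty acid elongation and desaturation.

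Bulk RNA was sequenced from ganglia of mice in 14 libraries and of pig-tailed monkeys (Macaca nemestrina) in 6 libraries. The mouse groups were ADAM17 KO, with 4 libraries in batch 1 and 3 in batch 2, and ADAM17 flox, with 3 libraries in batch 1 and 4 in batch 2. ADAM17 is a membrane protease that sheds the outer parts of cell-surface proteins, and the flox controls carry a floxed allele, so no group with an unmodified Adam17 gene enters these comparisons. The Cre line, the cells in which the gene was lost, age, sex, any pooling of animals and what a batch stands for are not stated. The monkey groups were 3 libraries of ganglia from SADBE-treated skin (squaric acid dibutyl ester, a contact sensitizer) and 3 of ganglia from vehicle-treated skin, with no genotype. Neither the time after treatment nor whether each library is a separate animal is stated, so p-values reflect only how libraries vary, which may be technical.

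Cells build cholesterol from acetyl-CoA through mevalonate, isoprenoid units and squalene, and they build fatty acids from the same acetyl-CoA through malonyl-CoA. Sterol regulatory element-binding proteins (Srebf1, Srebf2) switch on these genes when sterols are low: Scap escorts them to the Golgi for cleavage, and Insig1 holds the complex back when sterols are plentiful. Peripheral nerve depends on local synthesis, since Schwann cells make much of the cholesterol and fatty acid of the myelin sheath.

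The libraries differed in ways that touch every value. In batch 1 the estimated counts of a library summed to 12119749 to 14718779 in knockouts and 46931233 to 52085535 in flox. Depth is therefore fully mixed with genotype in batch 1, and its part in the differences there was not tested. In batch 2 the counts of a library summed to 27868213 to 35989743, and in monkeys to 9015572 to 27111676. All 10 sensory neuron markers were found in the mouse tables, with summed levels of 1970 to 8180 TPM (transcript abundance scaled by length, as deposited), and 9 in the monkey tables, with 1500 to 6700 TPM. The sum of 6 skeletal muscle markers reached 2650 TPM in knockout 4, against 20.1 to 1340 TPM in the rest of batch 1, and 4140 TPM in flox 6, against 20.1 to 1160 TPM in the rest of batch 2. Counts of 4 Y-linked genes, per 1e+06 counts of the library without TMM scaling, summed to 133 and 153 in knockouts 6 and 7. They summed to 4.55 to 9.88 in the other mouse libraries. Knockouts 6 and 7, both of batch 2, thus read as male, and no flox library did. Sex is therefore partly mixed with genotype in batch 2, and its part in the differences there was not tested. Adam17 itself stood at 16.1 to 34.6 CPM (counts divided by TMM-scaled library size, per 1e+06 counts) in knockout and 17.6 to 33.3 CPM in flox. A whole-gene count does not show which exons are lost, so it does not check the genotype. Among monkeys SADBE 2 and 3 were close to each other (chi-square per gene 26.5), against 269 to 507 for the other pairs of a group.

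In control ganglia the genes spanned a wide range of levels, with Fdps at the top in mice and FADS1 in monkeys. On the TPM scale, which divides by transcript length, Fdps (farnesyl pyrophosphate synthase) was highest in flox libraries of both batches, at 191 ± 63.6 TPM (SD, n = 3) in batch 1 and 507 ± 68.1 TPM (SD, n = 4) in batch 2. Scd2, a stearoyl-CoA desaturase, followed at 150 ± 36.3 TPM in batch 1, and Hmgcs1, the HMG-CoA synthase, at 349 ± 69.1 TPM in batch 2. Acacb, the acetyl-CoA carboxylase of the outer mitochondrial membrane, was lowest at 1.05 ± 0.45 and 1.12 ± 0.859 TPM. The order is coarse: 31 of 33 neighbouring pairs overlapped between libraries in batch 1 and 29 of 33 in batch 2. Gaps without overlap lay above Acacb in both batches and below Me1, the malic enzyme that supplies NADPH, in both. The deposited TPM columns of batch 1 summed to 600967 to 834481 over the table, against 954127 to 979307 in batch 2. Levels are therefore not comparable between the batches. Within batch 1 flox 2 and flox 3 summed to 600967 and 729006, against 787012 to 834481 in the other libraries. Knockout and flox TPM of batch 1, summed TPM of markers included, are thus not fully on the same scale. The order of genes within a library is not changed by this.

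In vehicle monkeys FADS1, the delta-5 fatty acid desaturase, led at 487 ± 277 TPM (SD, n = 3), followed by FDPS at 365 ± 119 TPM and FDFT1, the squalene synthase, at 194 ± 96.7 TPM. ACACB stood at 111 ± 49.5 TPM, in rank 7 of 33, where its mouse counterpart was last. SCAP was lowest at 4.79 ± 2.45 TPM. All 32 neighbouring pairs overlapped between the 3 vehicle libraries. Mouse and monkey values come from tables made separately, so only the order within each species can be read.

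**Figure D1:**
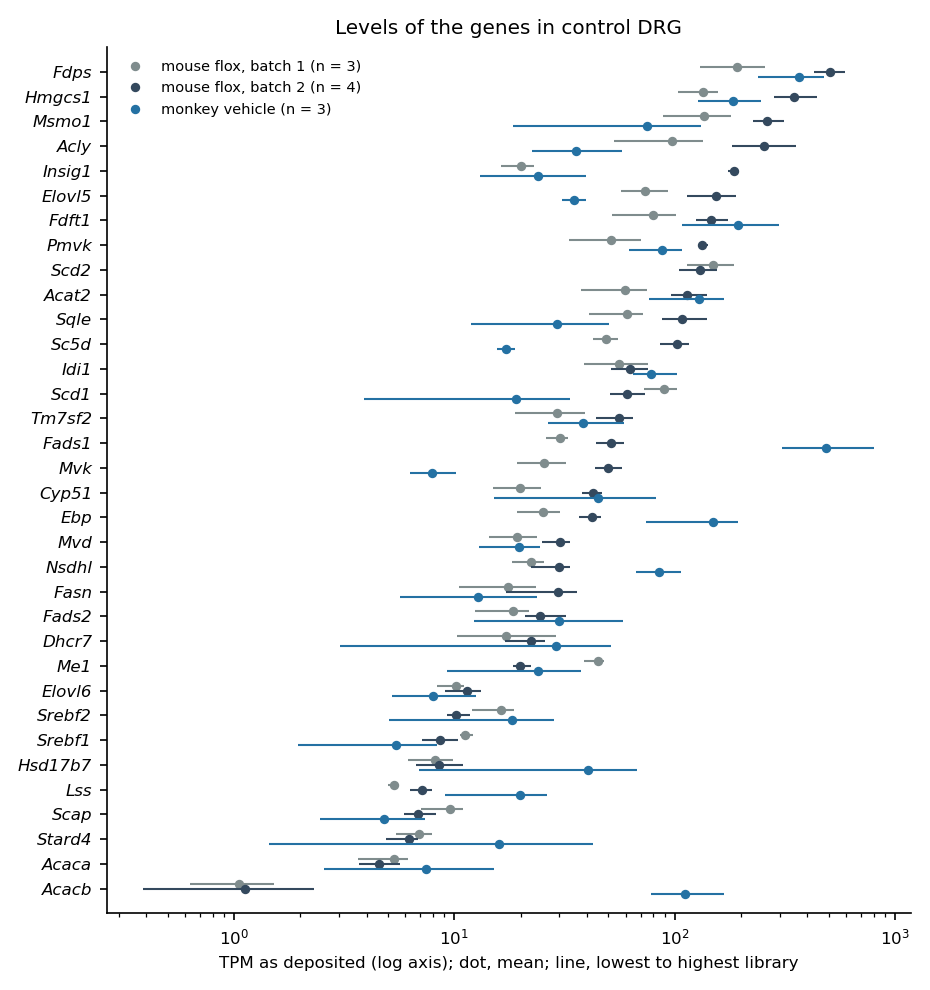
Deposited TPM (log axis) of each gene in flox mice of batch 1 and batch 2 and in vehicle monkeys; dots are means and lines run from the lowest to the highest library. Fdps is at the top of both mouse groups, Acacb is lowest in mice and at 111 TPM in monkeys, and most neighbours overlap.

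The comparison of knockout with flox asks which genes the loss of ADAM17 leaves at another level. Mvk and Scd1 rose and Elovl6 fell, and no other gene of the set passed the test. Mvk (mevalonate kinase) was 1.42-fold and Scd1 (stearoyl-CoA desaturase 1, which makes monounsaturated fatty acids) 1.44-fold higher, and Elovl6 (which lengthens palmitate to stearate) was 1.28-fold lower. These are 3 of 34 genes, 8.82%, called at an adjusted p (edgeR quasi-likelihood test with batch as a term, Benjamini-Hochberg adjustment over 15654 genes) under 0.05. Over all genes tested the share was 15.5%, with 7.97% higher and 7.51% lower, so the share of the set was below the background. All 34 genes passed the filter on low counts.

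The median difference over the set was 0.09 on the log2 scale (range -0.51 to 0.53), beside -0.008 over all genes. At an unadjusted p under 0.05 stood 12 members (35.3%), 10 with a higher and 2 with a lower value, near the share of all genes (4831, 30.9%). The batches are given apart. In batch 1 the median was 0.21 (all genes -0.004) and 31 of 34 members, 91.2%, had a positive value, against 49.4% of all genes. Every knockout library of batch 1 was shallower than every flox library, and the part of depth in this shift was not tested. In batch 2 the median was 0.004 (all genes -0.017) and 17 of 34 members were positive, against 48.6% of all genes. With no batch term, which mixes the batches, 0 members passed (Mvk adjusted p = 0.368, Scd1 0.219 in edgeR). Relative to the flox mean of their batch, knockouts 1 to 4 had set medians of 0.40, 0.35, 0.23 and 0.07 log2, and knockouts 5 to 7 of 0.08, -0.17 and -0.08 (SD of the 7 medians 0.213).

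**Figure D2:**
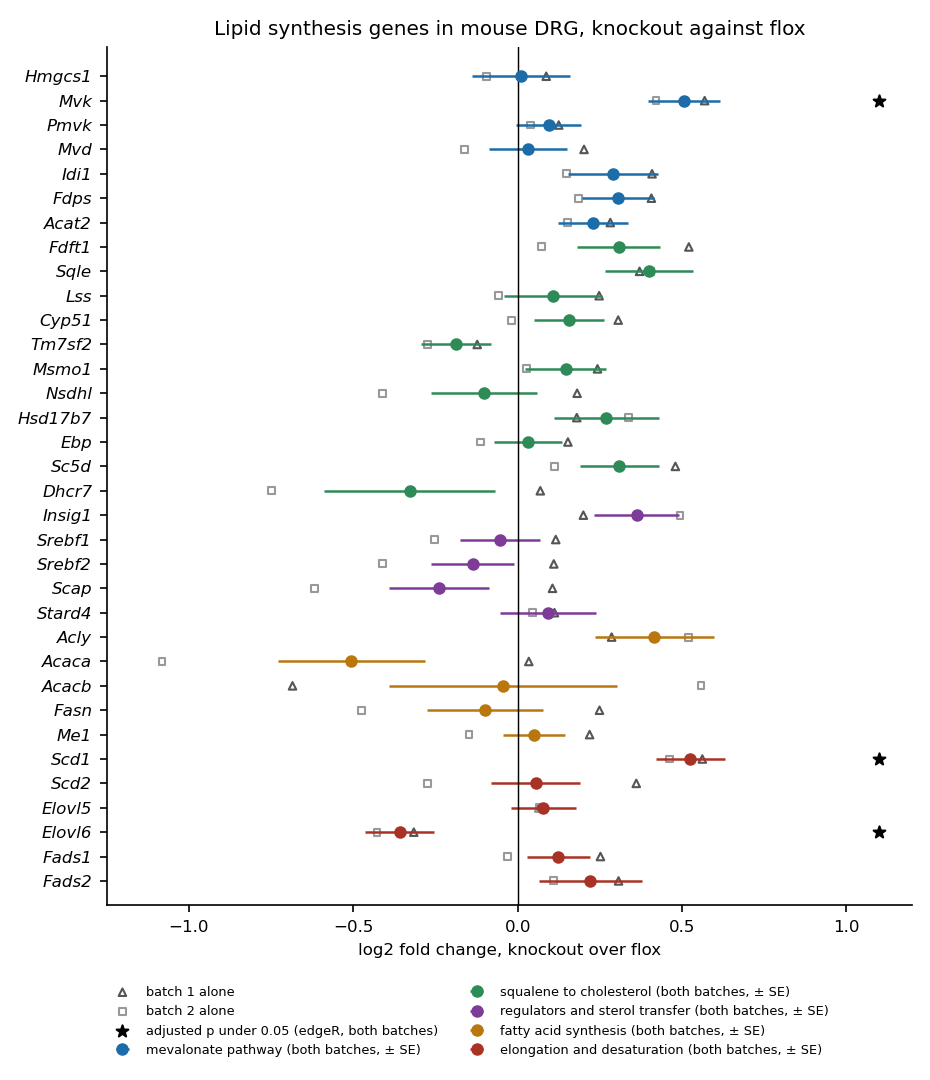
Log2 fold change of knockout over flox for the 34 genes in both batches (dots with SE, coloured by role), in batch 1 alone (triangles) and in batch 2 alone (squares); stars mark adjusted p under 0.05. Mvk and Scd1 lie to the right and Elovl6 to the left in each batch, while Acaca, Dhcr7 and Scap lie near 0 in batch 1 and far to the left in batch 2.

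Of the 7 mevalonate genes 1 rose. Mvk phosphorylates mevalonate and lies at chr5:114444269-114460591 (GRCm38, plus strand, GENCODE M21). It stood at 68.5, 46.7, 54.7 and 46.3 CPM in knockouts 1 to 4 and at 40.4, 33.8 and 32.8 CPM in flox 1 to 3. In batch 2 it stood at 84.6, 70.8 and 78.3 CPM in knockouts 5 to 7 and at 57.8, 64.0, 50.7 and 61.1 CPM in flox 4 to 7. Every knockout was above every flox library of its batch. The log2 difference was 0.51 ± 0.11 (SE, edgeR adjusted p = 0.00626), and within single batches 0.57 (adjusted p = 0.130) and 0.42 (adjusted p = 0.060). Leaving out any one of the 14 libraries kept the call (edgeR adjusted p 0.00439 to 0.020). The cobalamin gene Mmab, which starts 208 bases away and runs the other way on the minus strand, differed by 0.04 ± 0.16 (adjusted p = 0.895).

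Fdps, which joins isoprenoid units, read 279, 266, 294 and 268 CPM in knockouts against 251, 174 and 189 CPM in flox of batch 1, and 604, 473 and 459 CPM against 497, 499.6, 388 and 426 CPM in batch 2. The genotypes did not overlap in batch 1 and overlapped in batch 2. Its log2 difference was 0.31 ± 0.11 (edgeR adjusted p = 0.0707). It passed with DESeq2 on all libraries (adjusted p = 0.0382) and with edgeR without flox 1 (adjusted p = 0.0403). Hmgcs1, at the entry of the route, showed 0.01 ± 0.15 (adjusted p = 0.975). Idi1, the isomerase of isoprenoid units, showed 0.29 ± 0.14 and Acat2, a cytosolic thiolase, 0.23 ± 0.11. For Pmvk and Mvd, the 2 steps after Mvk, the values were 0.09 ± 0.10 and 0.03 ± 0.12. None of these 4 passed.

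The upstream sequence is printed for the called genes that have an entry in the RefSeq promoter table (GRCm38.p6), beside Hmgcs1, a classical target of the sterol regulatory element-binding proteins. Capitals mark 3 motifs searched on both strands: the sterol regulatory element letters TCACNCCAC, the CCAAT box and the GC box GGGCGG. Each run reads 5′ to 3′ on the plus strand and ends at the base before the RefSeq start. For Hmgcs1 that start lies upstream of the GENCODE start at 119690379, and for Mvk and Elovl6 the starts are the same.
Hmgcs1, chr13:119690151-119690350: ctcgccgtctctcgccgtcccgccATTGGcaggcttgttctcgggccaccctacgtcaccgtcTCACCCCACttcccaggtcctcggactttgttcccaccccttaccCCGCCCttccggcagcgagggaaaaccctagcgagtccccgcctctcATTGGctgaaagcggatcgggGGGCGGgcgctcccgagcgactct
Mvk, chr5:114444069-114444268: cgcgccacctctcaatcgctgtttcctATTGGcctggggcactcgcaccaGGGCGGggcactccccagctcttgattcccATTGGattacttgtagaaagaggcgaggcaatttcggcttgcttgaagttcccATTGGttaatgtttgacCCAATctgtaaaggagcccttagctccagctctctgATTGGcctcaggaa
Elovl6, chr3:129532186-129532354: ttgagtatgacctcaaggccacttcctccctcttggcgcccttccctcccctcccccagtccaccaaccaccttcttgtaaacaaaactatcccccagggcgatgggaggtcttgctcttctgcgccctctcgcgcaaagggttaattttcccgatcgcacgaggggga
The Hmgcs1 run holds the sterol element 137 bases before the RefSeq start, and the Mvk run holds 5 CCAAT boxes and 1 GC box. In the Elovl6 run none of these letters was found. A table entry existed for 27 of the 34 members (not for Fdps, Fdft1, Sqle, Scd1, Scd2, Fads1 and Stard4). In their windows, from 250 bases before to 50 after the RefSeq start, the sterol element was in 1 (3.7%, against 1.44% of 27025 genes). CCAAT boxes were in 22 (81.5%, against 41.1%) and GC boxes in 21 (77.8%, against 38.2%). A match is a description of the sequence only.

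None of the 11 genes from squalene to cholesterol passed; 8 had a positive and 3 a negative difference. Sqle, the squalene epoxidase and a rate-controlling enzyme, came nearest. It read 235, 236, 203 and 157 CPM in knockouts against 170.0, 132 and 169.6 CPM in flox of batch 1, and 390.1, 259 and 264 CPM against 238, 281, 223 and 183 CPM in batch 2. The genotypes overlapped in both batches, with knockout 4 lowest of its group and knockout 5 highest. Its log2 difference was 0.40 ± 0.13 (edgeR adjusted p = 0.0518). It passed with DESeq2 on all libraries (adjusted p = 0.0254). With edgeR it passed without knockout 4 (0.0215), knockout 6 (0.048) or flox 5 (0.0372).

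Fdft1, the squalene synthase, showed 0.31 ± 0.13 (edgeR adjusted p = 0.108) and Sc5d, the lathosterol desaturase, 0.31 ± 0.12 (adjusted p = 0.0923; 0.0479 without knockout 4). Both stood above every flox library in batch 1, and neither did in batch 2. Hsd17b7, Cyp51, Msmo1 and Lss, which shape the sterol rings, and the isomerase gene Ebp had values of 0.27, 0.16, 0.15, 0.11 and 0.03. The sterol reductase gene Tm7sf2 read -0.19, Nsdhl, a step of C4 demethylation, -0.10 and Dhcr7, the last reductase, -0.33 ± 0.26 (adjusted p = 0.415).

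Dhcr7 was among 4 members called in batch 2 alone, and it is described here because of that call. It read 28.0, 23.8 and 15.6 CPM in knockouts 5 to 7 and 34.5, 42.7, 39.4 and 35.3 CPM in flox 4 to 7, with no overlap, a log2 difference of -0.75 ± 0.21 (edgeR adjusted p = 0.0394). In batch 1 it read 67.5, 28.3, 42.8 and 25.2 CPM against 59.0, 29.3 and 26.8 CPM, with full overlap.

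The 4 regulators and the sterol carrier gene gave no call in both batches together. Srebf1, which drives fatty acid genes, read 49.7, 44.2, 42.5 and 42.6 CPM in knockouts and 31.5, 46.0, 43.4 CPM in flox of batch 1, and 24.6, 23.9 and 20.3 CPM against 26.7, 28.0, 23.5 and 31.5 CPM in batch 2. Srebf2, which drives sterol genes, read 88.6, 81.5, 92.4 and 83.8 CPM against 80.1, 71.0 and 84.3 CPM in batch 1, and 37.4, 30.1 and 23.5 CPM against 41.2, 38.4, 37.2 and 45.3 CPM in batch 2. The genotypes overlapped for both genes in both batches. Their log2 differences were -0.05 ± 0.12 and -0.14 ± 0.13 (edgeR adjusted p = 0.80 and 0.494). Stard4, a carrier of cholesterol between membranes, showed 0.09 ± 0.15.

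Scap read 50.6, 45.3, 38.6 and 37.9 CPM against 40.5, 35.9 and 41.1 CPM in batch 1, and 14.2, 13.4 and 17.5 CPM against 25.4, 20.0, 20.2 and 27.3 CPM in batch 2. The groups overlapped in batch 1, and in batch 2 every knockout was below every flox library; the log2 difference was -0.24 ± 0.15 (edgeR adjusted p = 0.301) over both. Insig1 read 69.5, 78.4, 48.4 and 42.6 CPM in knockouts and 52.8, 50.9 and 48.8 CPM in flox of batch 1. In batch 2 it read 471, 581 and 579 CPM against 420.1, 364, 409.9 and 354 CPM. It overlapped in batch 1 and was higher in every knockout of batch 2, where it passed alone (0.49 ± 0.13, edgeR adjusted p = 0.0304). Over both batches it showed 0.36 ± 0.13 (edgeR adjusted p = 0.0674). It passed with DESeq2 on all libraries (adjusted p = 0.0343) and with edgeR without knockout 3 (0.0467) or knockout 4 (0.0139).

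**Figure D3:**
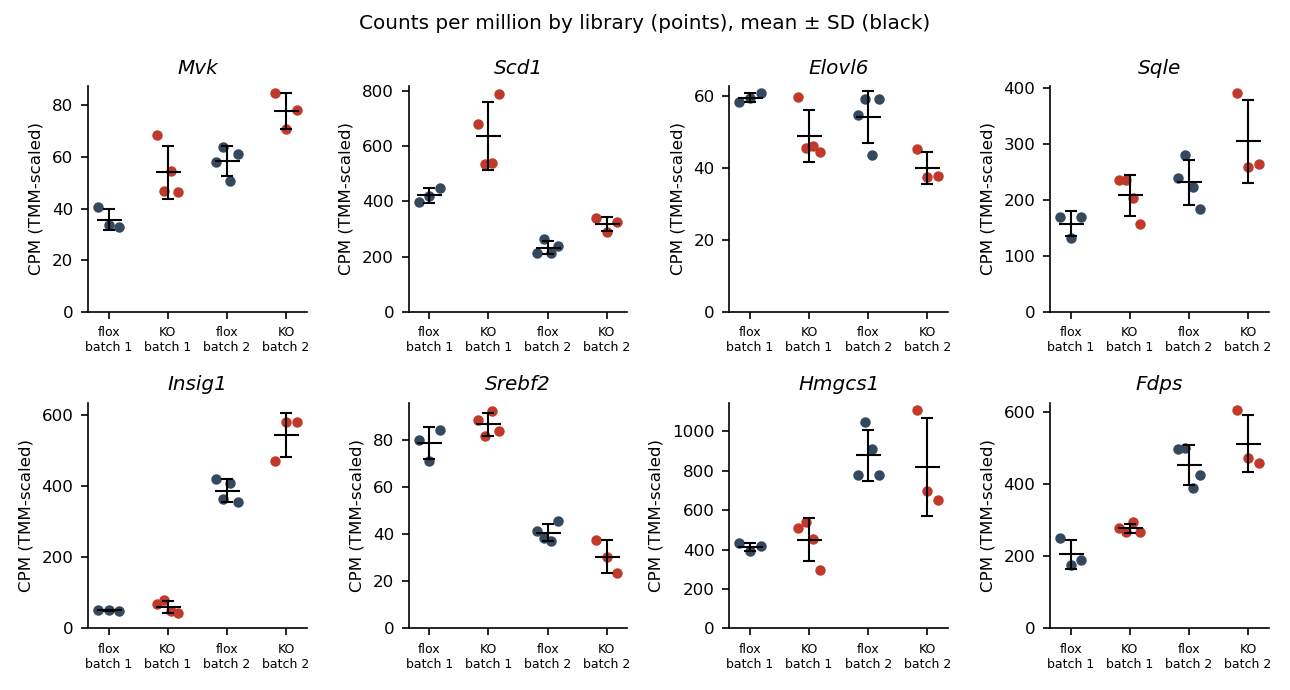
TMM-scaled CPM of 8 genes in each mouse library (points) with mean and SD (black), by batch and genotype. Mvk and Scd1 are higher in every knockout than in every flox library of the same batch; Insig1 runs from 42.6 to 78.4 CPM in batch 1 and from 354 to 581 CPM in batch 2.

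Among the 5 fatty acid synthesis genes none passed. Fasn, the fatty acid synthase, read 112, 110.1, 103 and 93.6 CPM against 81.2, 71.7 and 105 CPM in batch 1, and 67.5, 42.4 and 37.4 CPM against 76.4, 69.3, 50.5 and 78.4 CPM in batch 2. The genotypes overlapped in both, and the log2 difference was -0.10 ± 0.18 (edgeR adjusted p = 0.739). Acly, which makes cytosolic acetyl-CoA from citrate, showed 0.42 ± 0.18 (adjusted p = 0.132; 0.0474 without knockout 4). Acacb and Me1 showed -0.045 ± 0.346 and 0.05 ± 0.10.

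Acaca makes malonyl-CoA in the cytosol. In batch 1 it read 38.8, 28.6, 32.2 and 35.6 CPM in knockouts and 31.9, 29.1 and 35.8 CPM in flox, with full overlap. In batch 2 it read 15.1, 12.3 and 8.79 CPM against 22.3, 27.1, 17.4 and 36.1 CPM, and every knockout was lower. It was called in batch 2 alone (-1.08 ± 0.28, edgeR adjusted p = 0.0307), showed 0.03 ± 0.15 in batch 1, and -0.51 ± 0.22 (adjusted p = 0.137) over both.

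Scd1, at chr19:44394455-44407879 (GRCm38, minus strand), read 681, 537, 541 and 789.7 CPM in knockouts against 397, 419 and 449 CPM in flox of batch 1, and 340.3, 291 and 325 CPM against 215, 263, 213 and 238 CPM in batch 2. No knockout overlapped a flox library of its batch. The log2 difference was 0.53 ± 0.10 (edgeR adjusted p = 0.0034), and it held without any one library (adjusted p 0.00302 to 0.0102). Within batches it was 0.56 (adjusted p = 0.143) and 0.46 (adjusted p = 0.0367). Scd1 is abundant in fat. The 12 adipocyte markers summed to 65.8 to 269 TPM in knockout and 81.0 to 614 TPM in flox of batch 1, and to 47.9 to 173 TPM and 70.4 to 90.3 TPM in batch 2. None of the 10 that could be tested passed, and Lep was at 0 counts in 6 of 7 knockout and 3 of 7 flox libraries. The part of fat in the Scd1 values was not tested.

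Scd2, the desaturase form of brain and nerve, read 1212, 1080.2, 978 and 893 CPM against 890.2, 741 and 749.6 CPM in batch 1, and 534, 398 and 463 CPM against 498, 587, 517 and 660.0 CPM in batch 2. Knockouts were all higher in batch 1 and overlapped flox in batch 2; the log2 difference was 0.06 ± 0.14 (edgeR adjusted p = 0.815). The Scd genes are close copies, between which reads are divided by estimate. Scd3 stood at 0.824 to 4.74 CPM, with 18.8 CPM in flox 4, and Scd4 at 0 to 1.93 CPM. The genes of the polyunsaturated route had small values that did not pass: Fads1 0.12, Fads2 0.22 and Elovl5 0.08.

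Elovl6, at chr3:129532355-129638495 (GRCm38, plus strand), read 59.7, 45.3, 45.9 and 44.3 CPM in knockouts against 58.2, 59.4 and 60.6 CPM in flox of batch 1, and 45.1, 37.3 and 37.6 CPM against 54.6, 59.1, 43.5 and 59.0 CPM in batch 2. Knockout 1 lay among the flox libraries and flox 6 among the knockouts, so the groups overlapped in both batches. The log2 difference was -0.36 ± 0.10 (edgeR adjusted p = 0.0291), and within batches -0.32 (adjusted p = 0.305) and -0.43 (adjusted p = 0.0917). The call was lost without knockout 3 (0.0518), knockout 6 (0.0654), knockout 7 (0.0684), flox 5 (0.0511) or flox 7 (0.0505), and with limma on log2(TPM + 1) (0.225). That limma fit takes TPM as deposited, which in batch 1 is not fully on the same scale for knockout and flox. An antisense gene, Gm35986, overlaps Elovl6, and without stated strand its reads cannot be told apart.

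Genes whose genotypes did not overlap were counted in each batch. Mvk and Scd1 were higher in every knockout in both batches, 2 of 34 (5.88%, against 3.25% of all genes), and no member was lower in both (2.25% of all genes). In batch 1 the knockouts were all higher for 8 members (Mvk, Fdps, Fdft1, Sc5d, Scd1, Scd2, Fads1 and Me1; 23.5%, against 7.35%) and all lower for 0 (6.61%). In batch 2 they were all higher for 3 (Mvk, Insig1 and Scd1; 8.82%, against 13.2%) and all lower for 3 (Dhcr7, Scap and Acaca; 8.82%, against 13.7%).

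With batch 1 alone 0 members passed (1.8% of 15140 genes; DESeq2 was not run on single batches), and 7 of 34 (20.6%) stood at an unadjusted p under 0.05, against 16.4% of all genes. With batch 2 alone 4 passed, Insig1 and Scd1 higher (7.22% of 15780 genes) and Dhcr7 and Acaca lower (5.99%), 13.2% of all genes in either direction. Knockouts 6 and 7 of that batch read as male and no flox library did, so sex and genotype cannot be fully told apart there. Whether the genotype difference itself differed between batches was tested as an interaction. It was called for 161 genes, 1.03%, and for 0 members in edgeR, where 8 members (23.5%) stood at an unadjusted p under 0.05, against 2169 of all genes (13.9%). Acaca came nearest (-1.16 ± 0.33, adjusted p = 0.0997). DESeq2 called 3 members (Scap, Acaca and Scd2), beside 688 of 15654 genes. Without knockout 5 edgeR called Nsdhl, Acaca and Fasn, beside 445 of 15825 genes, and without flox 6 Acaca, beside 425 of 15810.

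Some libraries were high or low across the set. Knockout 5 was the highest of its 3 for 27 of 34 members (79.4%, against 37.4% of all genes). The others of that group, knockouts 6 and 7, read as male and knockout 5 did not. The contrast within that group is therefore also one of sex. Knockout 4, which has the muscle signal, was the lowest of its 4 for 25 (73.5%, against 33.9%), and flox 6, which has it too, was the lowest of its 4 for 16 (47.1%, against 26.9%). Flox 1 and flox 5, next in muscle signal at 1340 and 1160 TPM, were the highest of their groups for 19 (55.9%, against 41.9%) and 18 (52.9%, against 24.5%). Knockout 1, at 69.8 TPM, was the highest of 4 for 19 (55.9%, against 20.2%). Sensory neuron markers summed to 3440 TPM in knockout 4 and 5080 to 5210 TPM in knockouts 1 to 3, to 8180 TPM in knockout 5 and 6100 to 6360 TPM in knockouts 6 and 7. Knockout 4 also stood out in the red blood cell marker Hbb-bs, at 17872 CPM against 801 to 1805 CPM in knockouts 1 to 3. The part of muscle, blood and neuron content and of sex in the members' values was not tested.

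Without knockout 4 and flox 6, a choice made after seeing the data, Mvk, Scd1 and Elovl6 passed, and Sqle (edgeR adjusted p = 0.0397) and Insig1 (0.0236) joined the higher genes. Of all 15652 genes 1242 were then higher, beside 1248 of 15654 with every library. Without knockouts 6 and 7, the libraries with Y-linked reads, 6 members were higher (Mvk, Fdps, Fdft1, Sqle, Sc5d and Scd1) and 0 lower. Of all 15998 genes 881 were higher and 876 lower. Without knockout 4 alone, 6 members were higher (Mvk, Sqle, Sc5d, Insig1, Acly and Scd1), beside 1555 of 15774 genes.

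Differences between the batches were large for several members. Fitted beside genotype, batch 2 stood above batch 1 by 3.06 ± 0.14 log2 for Insig1 (8.32-fold), 1.27 for Acly, 1.06 for Pmvk, 1.02 for Fdps and 0.975 for Hmgcs1. For Me1 it was lower, at -1.68, as it was for Srebf2 at -1.23, Scap at -1.13 and Scd1 at -0.93. The batch difference was positive for 19 of 34 members, with quartiles of -0.735 and 0.595. Across the 34 members it went with the length of the longest coding transcript at a Spearman rho of -0.571, and across 14648 genes at -0.289. These are descriptions, since all points share the same 14 libraries with their depths and batch is unnamed.

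Other lipid genes were read from lists of related pathways. Of 11 tested sterol and isoprenoid genes outside the set, 3 were higher and 2 lower, with a median of 0.12. Ggps1, which makes geranylgeranyl pyrophosphate, rose by 0.42 ± 0.10 (edgeR adjusted p = 0.00883), and Erg28, a scaffold of sterol enzymes, fell by 0.31 ± 0.09 (0.0272). Mbtps1, the site-1 protease that cleaves the Srebf proteins, also passed (-0.38, 0.044) and was named after its value was seen, to complete the lower genes. Ggps1 held without any one library (adjusted p at most 0.0259). Erg28 did not hold without knockout 5 (0.070), flox 2 (0.0587) or flox 4 (0.0502). The count of lower genes was 0 without knockout 5 or flox 4, 2 without knockout 1 or 2 or flox 1, and 1 without any of the other libraries.

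Of 23 other fatty acid genes 2 were higher and 1 lower (median 0.17). Elovl1, which lengthens saturated chains for sphingolipids, fell by 0.57 ± 0.11 (edgeR adjusted p = 0.00278; at most 0.00834 without any one library). Elovl2 and Fads3, of long unsaturated chains, read 1.03 ± 0.32 (0.0369) and 0.38 ± 0.12 (0.0439), but single libraries decided both. Elovl2 was lost without knockout 3, 5 or 7 or flox 3, 4, 6 or 7 (adjusted p 0.0506 to 0.110), and Fads3 without knockout 1, 2, 3, 5 or 7 or flox 1, 2, 3, 5 or 6 (0.0541 to 0.0964). The count of higher genes was 0 without knockout 3 or 5 or flox 3 or 6, 5 without knockout 4, 3 without knockout 6, 2 without flox 1, and 1 without any of the other libraries. Hsd17b12, a reductase of the elongation cycle, read 0.32 ± 0.11 (adjusted p = 0.0517).

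Of 17 sterol export genes 2 were higher and 2 lower (median 0.07): Lrp1, a lipoprotein receptor, fell by 0.96 ± 0.17, and Scarb1, the HDL receptor, rose by 0.69 ± 0.16 (edgeR adjusted p = 0.00153 and 0.00972). Ch25h, which makes 25-hydroxycholesterol, rose by 1.58 ± 0.40 (0.0143), and Npc2, which hands on lysosomal cholesterol, fell by 0.29 ± 0.09 (0.0364), a call lost without knockout 3, 5, 6 or 7 or flox 4 or 6 (0.0587 to 0.0905). The lower genes numbered 1 when any single one of those 6 libraries was left out, 5 without knockout 4 and 4 without flox 1. Of 18 fatty acid breakdown genes 1 was higher (median 0.05), with 2 higher without knockout 4, 3 without flox 1, 1 without flox 3 or flox 5 and 0 without any of the other libraries. Of 12 upstream regulators 1 was higher (median 0.115), the ubiquitin ligase subunit Fbxw7, which marks nuclear Srebf proteins for breakdown, by 0.50 ± 0.12 (0.010).

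Myelin lipid genes and Schwann cell markers were read beside the set. Of 8 myelin glycolipid genes 3 fell and none rose (median -0.34): Gal3st1, which makes sulfatide, by 0.93 ± 0.23 (edgeR adjusted p = 0.0123), Cers2, the ceramide synthase of very long chains, by 0.53 ± 0.13 (0.0131), and Ugt8a, which makes galactosylceramide, by 0.77 ± 0.22 (0.0274). The Ugt8a call was lost without knockout 1, 2, 3 or 5 or flox 2 or 6 (adjusted p 0.0523 to 0.0679). The Cers2 call held without any one library, but batch 1 alone gave only -0.21 (edgeR adjusted p = 0.492). It was lost without knockouts 6 and 7 of batch 2, which read as male (-0.34, edgeR adjusted p = 0.116). Of 12 myelinating Schwann cell markers 6 fell and none rose, with a median of -0.65, among them Prx (-1.18), Mbp (-0.86), Sox10 (-0.75) and Mag (-0.94). Their sums ran from 2350 to 3050 TPM in knockouts against 3180 to 3970 TPM in flox of batch 1, and 3160 to 3830 against 5260 to 7910 in batch 2. The count fell to 3 without knockout 5, knockout 6, knockout 7 or flox 6, and rose to 10 without knockout 4. In bulk RNA fewer Schwann cells and less RNA per cell cannot be told apart, and the part of this in the members' values was not tested.

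Other markers moved too. All 6 neutrophil markers rose (median 3.11), with sums of 4690 to 16100 TPM in knockout and 520 to 1720 TPM in flox of batch 1, and 1260 to 2330 TPM and 114 to 244 TPM in batch 2. Of 8 fibroblast markers 7 fell (median -1.185), and 3 of 10 sensory neuron markers rose (median 0.27). In satellite glia 1 of 8 rose and 1 fell, and none passed among 6 macrophage, 6 muscle, 5 erythroid and 3 oligodendrocyte markers. The part of these cells in the members' values was not tested.

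**Figure D4:**
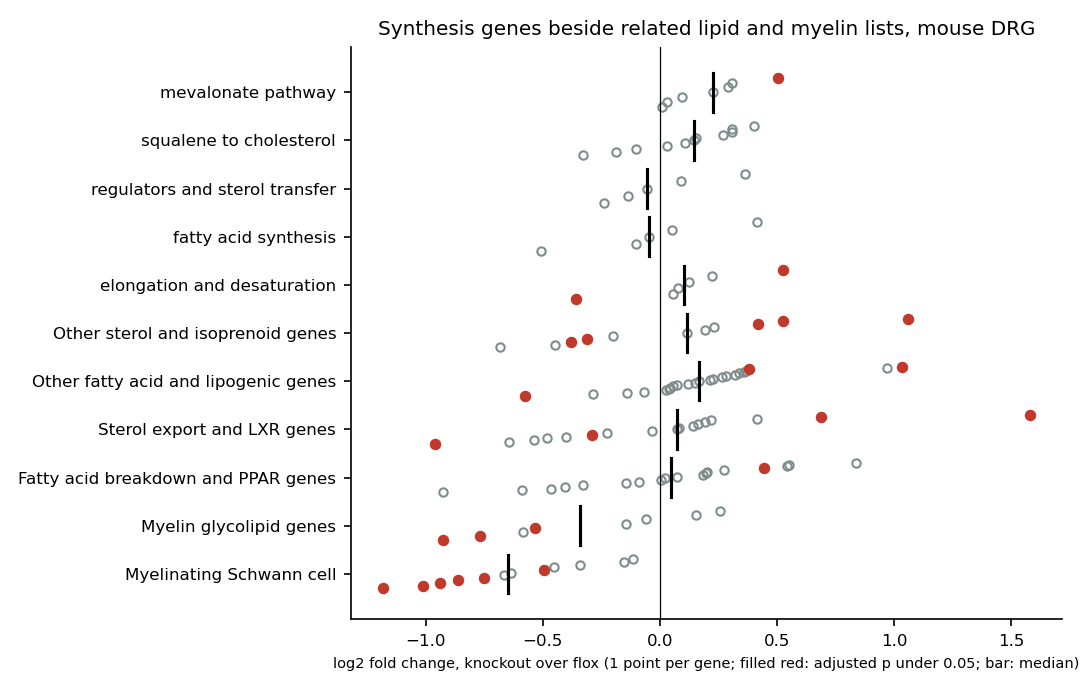
Log2 fold change of knockout over flox for each tested gene in the 5 roles of the set, in related lipid lists and among myelinating Schwann cell markers; filled red points passed the test and bars are medians. The synthesis roles have medians from -0.05 to 0.23, while the myelin glycolipid and Schwann cell lists have medians of -0.34 and -0.65.

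In monkeys the comparison of SADBE with vehicle asks which genes differ in ganglia that serve treated skin. No gene of the set passed, with 33 of 33 tested, and none did among all 17988 genes (0.0%) in edgeR; DESeq2 called 27 genes and 0 members. At an unadjusted p under 0.05 stood 2 of 33 members (6.06%), SCD and IDI1, against 550 genes, 3.06%. The median of the set was 0.02 log2, beside -0.008 over all genes, with values from -2.05 to 0.82. It moved to -0.27 without vehicle 1 and 0.21 without vehicle 2. The median SE of a member was 0.553 log2 in 3 against 3 libraries, so the absence of calls does not show that levels were alike.

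SCD, the desaturase, had the lowest p: 4.41, 4.80 and 4.23 TPM in SADBE 1 to 3 against 3.89, 33.4 and 19.6 TPM in vehicle 1 to 3. Vehicle 1 lay below all SADBE libraries, so the groups overlapped (-2.05 ± 0.68 log2, edgeR adjusted p = 0.999). IDI1 read 40.7, 33.0 and 45.04 TPM against 64.8, 102 and 65.9 TPM, all lower in SADBE (-0.965 ± 0.385, edgeR adjusted p = 0.999). MVK read 14.8, 13.3 and 13.7 TPM against 6.28, 10.2 and 7.27 TPM, all higher in SADBE (0.82 ± 0.40, edgeR adjusted p = 0.999). SC5D read 10.9, 12.2 and 12.9 TPM against 16.99, 18.8 and 15.7 TPM, all lower (-0.52 ± 0.38, edgeR adjusted p = 0.999). Groups without overlap were thus 1 higher (3.03%, against 4.63% of all genes) and 2 lower (6.06%, against 4.56%). ELOVL6 read 13.3, 3.65 and 4.36 TPM against 6.27, 12.6 and 5.21 TPM, with full overlap (-0.15 ± 0.55).

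SADBE 1 stood apart from SADBE 2 and 3 for several members. HMGCS1 read 451 TPM in SADBE 1 and 111.8 and 111.2 TPM in the others, and SREBF2 39.9 against 6.13 and 10.3 TPM. Vehicle libraries also spread: DHCR7 read 3.04, 51.6 and 32.2 TPM, and vehicle 1 was lowest of 3 for 21 of 33 members (63.6%, against 35.8% of all genes). Adipocyte markers summed to 2900 TPM in vehicle 1, 840 and 1070 TPM in vehicle 2 and 3, 207 TPM in SADBE 1, and 1240 and 1060 TPM in SADBE 2 and 3. Schwann cell markers summed to 4050 to 14400 TPM in vehicle and 4680 to 10100 TPM in SADBE. Sensory neuron sums were 1500, 6700 and 2880 TPM in vehicle 1 to 3 and 6030, 3600 and 3560 TPM in SADBE 1 to 3. Fibroblast sums were 2930, 952 and 480 TPM in vehicle 1 to 3 and 358, 1540 and 1850 TPM in SADBE 1 to 3. Neutrophil markers summed to 91.6 to 3380 TPM in vehicle and 38.1 to 641 TPM in SADBE, with CAMP at 1634 TPM in vehicle 1. The part of fat, Schwann cell, neuron, fibroblast and neutrophil content in these values was not tested. In the related lists 1 of 11 sterol genes (9.09%) and 5 of 24 fatty acid genes (20.8%) stood at an unadjusted p under 0.05, against 3.06% of all genes. The lowest p was that of THRSP, a lipogenic gene of fat and liver, with 1.41, 7.72 and 7.91 TPM in SADBE against 39.1, 378 and 83.4 TPM in vehicle (-4.73 ± 0.99, edgeR adjusted p = 0.999).

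**Figure D5:**
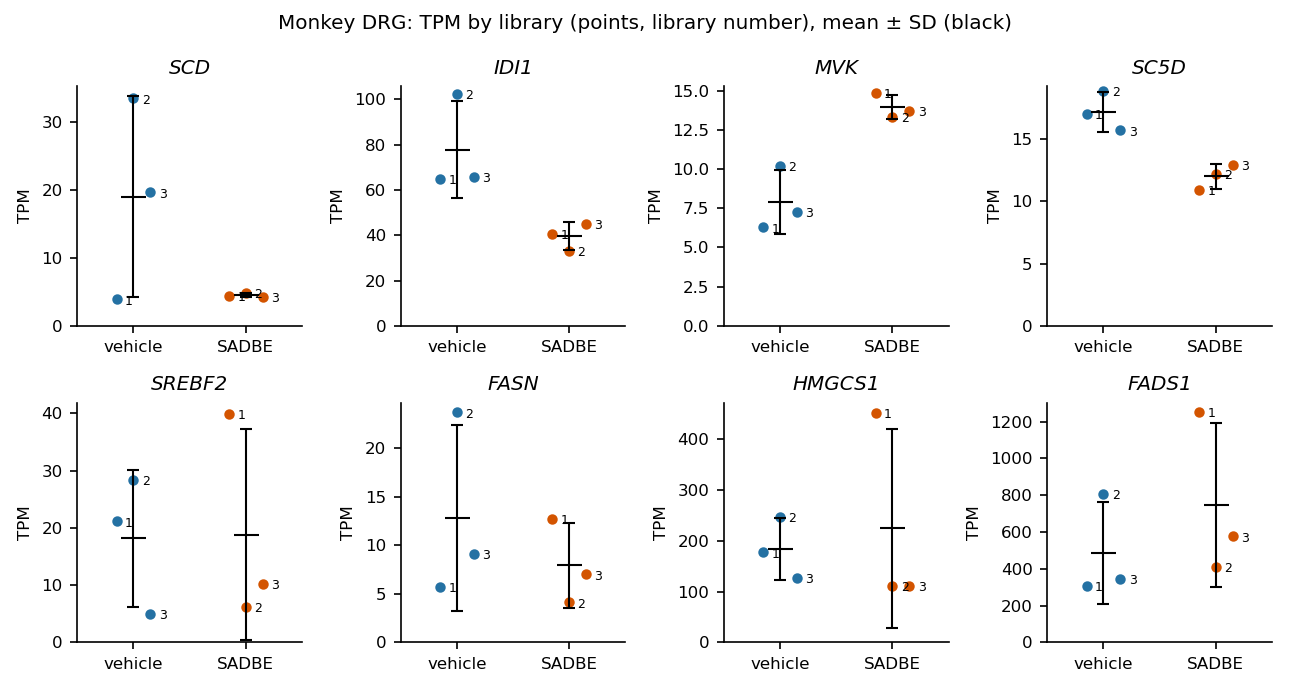
Deposited TPM of 8 genes in each monkey library (points with library numbers) with mean and SD (black). MVK is higher and IDI1 and SC5D are lower in every SADBE library, SCD overlaps through vehicle 1, and SADBE 1 is far above SADBE 2 and 3 for SREBF2 and HMGCS1.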

How the data were processed

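Bulk RNA sequencing of dorsal root ganglia gave 14 mouse and 6 monkey libraries. The authors deposited estimated counts per gene, not always whole numbers, and TPM per gene, made with kallisto per the submitters' processing notes. Those notes name build GRCm38 for all samples; the kallisto version, the monkey transcriptome and the strand setting are not given in the sources used here. A row naming no gene, 0.0785% to 0.186% of mouse counts, was left out.

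Counts were rounded and tested with edgeR 4.0.16 (R 4.3.3; quasi-likelihood, TMM, filterByExpr with a minimum count of 10 and a total of 15), with batch as a term in mice. Adjusted p-values (Benjamini-Hochberg, threshold 0.05) span all genes tested. Alternatives were DESeq2 1.42.0, RLE size factors, no filter, limma 3.58.1 on log2(TPM + 1) and log2(TPM + 0.1), a replicate block, no batch term, single batches and left-out libraries. Libraries of a group differed by more than counting noise, and each was treated as 1 unit. This does not show that each is a separate animal. In mice the closest pairs included knockouts 1 and 2 (chi-square per gene 21.0) and knockouts 6 and 7 (30.1). Folds are fitted values; levels are compared between genes as deposited TPM.

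The members, lists and tests were chosen with earlier results of these data known. Values in every library are given for members past the threshold, for Srebf1, Srebf2, Scap, Insig1, Fasn, Scd1, Scd2, Sqle and Fdps, and in monkeys for the 4 lowest p and the counterparts of called mouse members. Up to 4 genes with the lowest p are named per related list. Dhcr7 and Acaca values by library were added after their results were seen. Some genes of the related lists enter the counts but are not reported here by name. Positions come from GENCODE M21, promoters from RefSeq.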

Additional observations from a re-analysis of the deposited data

Results flagged for a closer look

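In groups of 4 to 10 libraries, 136 sets of member values were checked for a library far from the rest, and 6 were found. For separate sets of like libraries chance alone marks about 1 in 20. Some sets here, such as those of all flox libraries, mix the batches and share libraries with other sets. That rate is therefore only a rough guide. Elovl6 read 43.5 CPM in flox 6 and 54.6 to 60.6 CPM in the other flox libraries, and 59.7 CPM in knockout 1 and 44.3 to 45.9 CPM in the other batch 1 knockouts. Flox 6 was also low among the batch 2 flox libraries for Tm7sf2 (45.1 CPM, others 58.1 to 60.9) and Nsdhl (37.2 CPM, others 51.9 to 55.5). Knockout 4 was low among the batch 1 knockouts for Fads2 (18.3 CPM, others 34.9 to 35.7) and Tm7sf2 (29.4 CPM, others 32.6 to 33.0). Knockout 4 and flox 6 are the libraries with the most muscle marker signal, and knockout 4 also has the most Hbb-bs. The part of muscle and blood in these values was not tested.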

How the results depend on the processing

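Members called higher in mice numbered 2 in edgeR with batch as a term, beside 1248 of 15654 genes. With DESeq2 they numbered 5 (Mvk, Fdps, Sqle, Insig1 and Scd1), beside 1709 of 15654 genes. They numbered 6 without knockout libraries 6 and 7, beside 881 of 15998 genes. Without knockout 4 and flox 6 (added after seeing the data) they numbered 4, beside 1242 of 15652 genes. With 1 library left out they numbered 2 to 6 (all genes 860 to 1555), and with no batch term or in batch 1 alone 0. Members called lower numbered 1, but 0 with limma on log2(TPM + 1) or log2(TPM + 0.1), with no batch term, in batch 1 alone and without knockout libraries 6 and 7, 2 in batch 2 alone, and 0 to 1 with 1 library left out. The limma fits used TPM as deposited, which in batch 1 is not fully on the same scale for knockout and flox. All genes called numbered 2423, with 564 without a batch term, 273 in batch 1 alone and 1587 (without knockout 5) to 3108 (without knockout 4) with 1 library left out. Members called in the interaction numbered 0, with 3 in DESeq2 and 0 to 3 with 1 library left out. All genes called there numbered 161, with 688 in DESeq2 and 50 to 445 with 1 library left out. In monkeys 0 genes were called, with 27 in DESeq2, and the set's median ran from -0.27 to 0.21 with 1 library left out. Of 850 mouse member values under 25 alternatives 745 kept their reading, none that passed turned its sign, and 19 members that did not pass changed sign in some fit. The cause of these shifts was not tested; single batches and left-out libraries also hold fewer samples.

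Whether equal replicate numbers pair libraries is not stated. Number 4 stands in batch 1 for knockout and in batch 2 for flox, so it is no pair within a batch. Correlations of same-numbered mouse libraries ran from -0.218 to 0.269 and of monkey libraries from -0.390 to 0.302. The same-numbered library correlated best for mouse numbers 3 and 5 and monkey number 3, and not for the others. These correlations use deviations from means of few libraries, so they cannot show whether pairs exist. With the number as a replicate block, members called higher numbered 4 (Mvk, Sqle, Insig1 and Scd1), members called lower 0, and all mouse genes 2103 (1009 higher). In mice the batch term of that fit rests on number 4 alone, since every other number lies within 1 batch. The batch 1 knockout libraries are the shallowest in mice, and with 3 libraries a group the monkeys limit what can be seen.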
